A study of Mus musculus with 10 samples.

Results

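The lysosomal cathepsins and legumain examined here are 10 genes, taken by symbol from the deposited table of 53546 genes: Ctsa, Ctsb, Ctsc, Ctsd, Ctsf, Ctsh, Ctsl, Ctss, Ctsz and Lgmn. All 10 were present and all 10 passed the filter on low counts, which left 14023 genes for testing. They were measured by bulk RNA sequencing in CNS-associated macrophages, the macrophages of the meninges and perivascular spaces, sorted from the brains of individual C57BL/6N mice aged 6 to 8 weeks that received no treatment. The mice were wild type (WT, n = 3), heterozygous for the Mrc1-CreERT2 allele (Mrc1-CreERT2/wt, labelled Cre-pos, n = 3, replicates 1, 2 and 4) or homozygous for it (Mrc1-CreERT2/Mrc1-CreERT2, labelled Cre-Cre, n = 4). CreERT2 is a Cre recombinase that needs a ligand to become active, and the allele's name places it at Mrc1, which encodes the mannose receptor CD206. The comparisons ask whether carrying the allele, without any induction, goes with another level of these transcripts.

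Cathepsins and legumain are the main protein-cutting enzymes of the lysosome. They are made as inactive precursors, sorted to endosomes by mannose 6-phosphate receptors or sortilin, and activated by cleavage in the acidic compartment. Macrophages use them to break down engulfed material and to trim antigens and the invariant chain Cd74 before peptides are loaded on MHC class II, and cystatins hold the cysteine proteases in check. Ctsb, Ctsc, Ctsf, Ctsh, Ctsl, Ctss and Ctsz belong to the papain family of cysteine proteases. Ctsd is an aspartic protease, Ctsa a serine carboxypeptidase and Lgmn, also called asparaginyl endopeptidase, a cysteine protease of another family that cuts after asparagine.

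Short stretches of promoter are printed first because several lysosomal genes are known to be controlled through the E-box CACGTG by the factors Tfeb, Tfe3 and Mitf. RefSeq promoters on GRCm38.p6 (250 bases before to 50 after a start) were found for 8 of the 10 genes, with 10 starts in all. None was found for Ctsb and Ctsh. The motif CACGTG, which reads the same on both strands, was in a promoter of 5 of the 8 (Ctsa, Ctsd, Ctsf, Ctsl and Lgmn), against 8.09% of 27025 genes with a promoter in that table. The longer motif, that E-box with GT before it and AC after it, was in 0 of the 8 and in 0.37% of all genes. The core of the interferon-stimulated response element, read as GAAA, any 2 bases and GAAA, was in 1 of the 8 (Ctss), against 3.99% of all genes. GAGGAAGT, a core bound by the macrophage factor PU.1, was in 2 of the 8 (Ctsc and Ctss), against 3.69%. Both strands were searched, and the motifs were chosen after the promoter sequences had been seen. Capitals mark the motif, each stretch is at most 30 bases on the gene's own strand, and the reverse of GAGGAAGT reads ACTTCCTC.
Ctsd, chr7:142388055-142388077, minus strand: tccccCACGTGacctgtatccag
Ctsd, chr7:142387908-142387937, minus strand: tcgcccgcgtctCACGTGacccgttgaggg
Ctsa, chr2:164833749-164833778, plus strand: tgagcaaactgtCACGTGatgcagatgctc
Ctsa, chr2:164833766-164833795, plus strand: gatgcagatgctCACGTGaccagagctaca
Ctsf, chr19:4855074-4855103, plus strand: caccccgtggtcCACGTGcctcgcgtaaat
Ctsl, chr13:64370739-64370768, minus strand: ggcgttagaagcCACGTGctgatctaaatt
Lgmn, chr12:102439124-102439153, minus strand: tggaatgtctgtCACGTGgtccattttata
Ctss, response element core, chr3:95526755-95526784, plus strand: gtctttaaatGAAACCGAAAtgaaagttca
Ctss, PU.1 core, chr3:95526773-95526802, plus strand: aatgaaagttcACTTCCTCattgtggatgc
Ctsc, PU.1 core, chr7:88277923-88277952, plus strand: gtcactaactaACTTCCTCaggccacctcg

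Ctsd and Ctsa each held the E-box at more than 1 place. Counted from the annotated start, the Ctsd copies began at -245 and -98. The Ctsa copies began at -12 and 5 from the second of its starts, and the Lgmn copy at -49 from the second of its starts. Ctsf and Ctsl held it at -79 and -236. In Ctss the response element core began at -21 and the PU.1 core at -2, so that both lay next to the start, while the PU.1 core of Ctsc was at -151. These matches are descriptions of the letters, and binding was not measured.

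The libraries held 22986972 to 36575446 counts. Mrc1 checked the genotype labels, with 3065 to 3748 CPM (counts scaled to library size) in wild-type, 1985 to 2286 in heterozygous and 441 to 542 in homozygous libraries. Of 12 markers of CNS-associated macrophages none was at 0 in any genotype, and their summed level was 49806 to 58550 CPM in wild-type, 50918 to 63004 in heterozygous and 58623 to 67366 in homozygous libraries. The most abundant were Apoe, a lipid carrier, and Dab2, an endocytic adaptor. Apoe alone made up most of each sum, at 32555 to 39740, 31516 to 45542 and 38612 to 47475 CPM in that order, and its ranges overlapped. Summed markers of several other cells differed between genotypes, not all in the same direction. The 7 microglia markers summed here (led by P2ry12 and Gpr34, none at 0) came to 1512, 1999 and 4163 CPM in wild-type replicates 1 to 3, of which the last stood apart, 1812 to 3147 in heterozygous and 1127 to 1647 in homozygous libraries, with wild-type replicate 1 inside the homozygous range. The 5 monocyte markers (led by Ccr2 and Ly6c2, 1 of them at 0 in all libraries) summed to 75.7 to 163 CPM, 49.1 to 68.0 CPM and 5.72 to 13.5 CPM in the same order. Neutrophil and mast cell markers, cells rich in other proteases, stayed at or under 5.42 CPM in sum. In bulk samples, fewer cells of a type and less RNA per cell cannot be told apart. The 3 comparisons share libraries: both Cre genotypes were set against the same wild types, and the homozygotes against the same heterozygotes.

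Together the 10 genes took 3.54% ± 0.436 (SD, n = 3) of all counts in wild-type, 3.50% ± 0.107 (SD, n = 3) in heterozygous and 3.82% ± 0.123 (SD, n = 4) in homozygous libraries. Ctsb alone took 1.10% ± 0.0898, 1.14% ± 0.0719 and 1.36% ± 0.0598 in that order. The share of the 10 genes ranged from 3.11% to 3.98% over the wild-type libraries, which contained the whole range of the other genotypes (3.38% to 3.96%).

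Levels of different genes were compared per length, as CPM per kilobase of the gene's exons. Ctss, the cathepsin of antigen-presenting cells, led in wild-type libraries with 3796 ± 711 CPM per kilobase (SD, n = 3). Among 13678 tested genes with a length it ranked 10th. Ctsd followed with 1985 ± 588 and Ctsb with 1820 ± 193 CPM per kilobase. Lgmn (1106 ± 133), Ctsc (1069 ± 216) and Ctsz (1008 ± 132 CPM per kilobase) came next, then Ctsa (454 ± 43.6) and Ctsh (310 ± 26.2 CPM per kilobase). Ctsl (103 ± 12.7) and Ctsf (59.7 ± 12.1 CPM per kilobase) were lowest. Ctsf, at rank 798, was still in the upper part of the ranked genes.

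Neighbours were also compared in the order of their means over all 10 libraries, and several were not separated in every genotype. Ctsb exceeded Ctsd in 6 of 10 libraries, Ctsc exceeded Lgmn in 8 and Lgmn exceeded Ctsz in 8. Within the homozygous libraries alone, Ctsb (2150 to 2373 CPM per kilobase) lay above Ctsd (1731 to 1885). There Lgmn (1099 to 1177 CPM per kilobase) also lay above Ctsz (942 to 1085). By contrast Ctss exceeded Ctsb, Ctsd exceeded Ctsc, and Ctsz, Ctsa, Ctsh, Ctsl and Ctsf followed each other, in 10 of 10 libraries, with ranges that did not overlap within any of the 3 genotypes. The order depended on the length used. With the coding part alone Ctsb led at 10828 ± 1149 CPM per kilobase, ahead of Ctss at 5039 ± 944, and the annotated exons of Ctsb span 6.051 kb and its coding part 1.017 kb, while those of Ctss span 1.358 and 1.023 kb. With the longest coding transcript Ctss led again, at 3805 ± 713 CPM per kilobase, and Ctsl replaced Ctsf as the lowest (108 ± 13.4 against 152 ± 30.8).

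**Figure D1:**
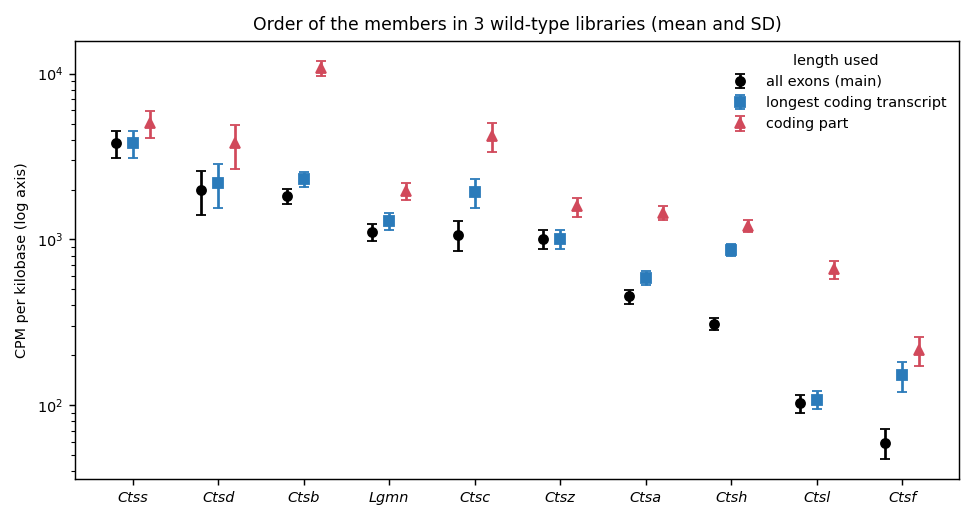
Level of each member in the 3 wild-type libraries, in CPM per kilobase on a log axis, computed with all annotated exons (black circles), the longest coding transcript (blue squares) or the coding part (red triangles). Points are means and bars SD (n = 3). Ctss leads with exon length (3796) and Ctsb with coding length (10828), while Ctsf and Ctsl are the lowest under each length.

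Ctsb, an abundant papain-family enzyme that cuts both within proteins and from their ends, was at 9745, 11242 and 12049 CPM in wild-type replicates 1, 2 and 3. It was at 12205, 11367 and 10543 CPM in heterozygous replicates 1, 2 and 4. Homozygous replicates 1 to 4 held 13012, 13023, 13892 and 14358 CPM. All 4 homozygous libraries lay above every library of the other genotypes, while heterozygous and wild-type values overlapped.

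Ctss, which stays active at neutral pH and removes the last part of the invariant chain, was at 4832, 4392 and 6242 CPM in wild-type mice. The heterozygous libraries lay very close together, at 4806, 4833 and 4830 CPM. The homozygous libraries held 3668, 4406, 4605 and 4749 CPM. Every homozygous library was below every heterozygous one, and homozygous replicate 1 was the lowest of all.

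Ctss had its extremes in the libraries with the extreme microglia markers. Wild-type replicate 3, with the highest Ctss level, also had the highest summed microglia markers (4163 CPM). This was not particular to Ctss, as the same library was also the highest for Ctsf, Ctsh, Ctsd and Lgmn. Homozygous replicate 1, with the lowest Ctss level, had the lowest sum of these markers (1127 CPM). In homozygous replicates 2 to 4 the markers were nearly level, at 1610 to 1647 CPM, while Ctss ran from 4406 to 4749 CPM. Wild-type replicates 1 and 2 and the heterozygous libraries did not follow the order of the markers. Wild-type replicate 1, with 1512 CPM of the markers, had more Ctss (4832 CPM) than replicate 2 with 1999 CPM (Ctss 4392 CPM). Heterozygous libraries ran from 1812 to 3147 CPM of the markers, with Ctss at 4806 to 4833 CPM. Microglia also express Ctss, and their part in the Ctss values was not tested.

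Ctsl, the endopeptidase that cuts the invariant chain in the thymic cortex, was at 588, 752 and 663 CPM in wild-type, 722, 747 and 651 CPM in heterozygous and 771, 823, 651 and 664 CPM in homozygous libraries. The 3 genotypes overlapped. Homozygous replicates 1 and 2 were above all wild-type libraries and replicates 3 and 4 were not.

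Ctsc, the dipeptidyl peptidase that activates the serine proteases of leukocyte granules, was at 4820, 6541 and 7267 CPM in wild-type libraries. It was at 5830, 5696 and 6170 CPM in heterozygous libraries. Homozygous libraries held 6637, 7185, 7403 and 7676 CPM, all above the heterozygous values but overlapping wild type.

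Ctsh, an aminopeptidase, was at 1269, 1417 and 1502 CPM in wild-type, 1322, 1321 and 1105 CPM in heterozygous and 1116, 1113, 1211 and 1301 CPM in homozygous libraries. Homozygous replicates 1, 2 and 3 were below every wild-type library, and replicate 4 was not.

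Ctsz, a carboxypeptidase, was at 1273, 1433 and 1652 CPM in wild-type, 1693, 1738 and 1363 CPM in heterozygous and 1357, 1522, 1432 and 1564 CPM in homozygous libraries. Ctsf, a papain-family enzyme with a long propeptide, was at 244, 293 and 365 CPM in wild-type, 311, 297 and 333 CPM in heterozygous and 329, 325, 325 and 312 CPM in homozygous libraries. In both genes the genotypes overlapped, and the wild-type libraries of Ctsf spanned the values of all other libraries.

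Ctsd, the main aspartic protease of the lysosome, had the widest spread. It was at 3194, 4865 and 5938 CPM in wild-type, 4366, 5047 and 4351 CPM in heterozygous and 4297, 4068, 4431 and 4085 CPM in homozygous libraries. The wild-type libraries included both the lowest and the highest value of the series.

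Ctsa, which besides its peptidase activity protects the lysosomal glycosidases Glb1 and Neu1 in a complex, was at 1911, 2302 and 2216 CPM in wild-type libraries. It was at 2590, 2435 and 1810 CPM in heterozygous libraries, where replicate 4 was the lowest of the series. Homozygous libraries held 2660, 2677, 2375 and 2297 CPM, of which replicate 4 fell within the wild-type range.

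Lgmn, which starts the cutting of the invariant chain and processes several cathepsins to their mature form, was at 2453, 2333 and 2918 CPM in wild-type libraries. It was at 2310, 1957 and 2405 CPM in heterozygous and at 2552, 2735, 2658 and 2682 CPM in homozygous libraries. The homozygous values were all above the heterozygous ones and inside the wild-type range.

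**Figure D2:**
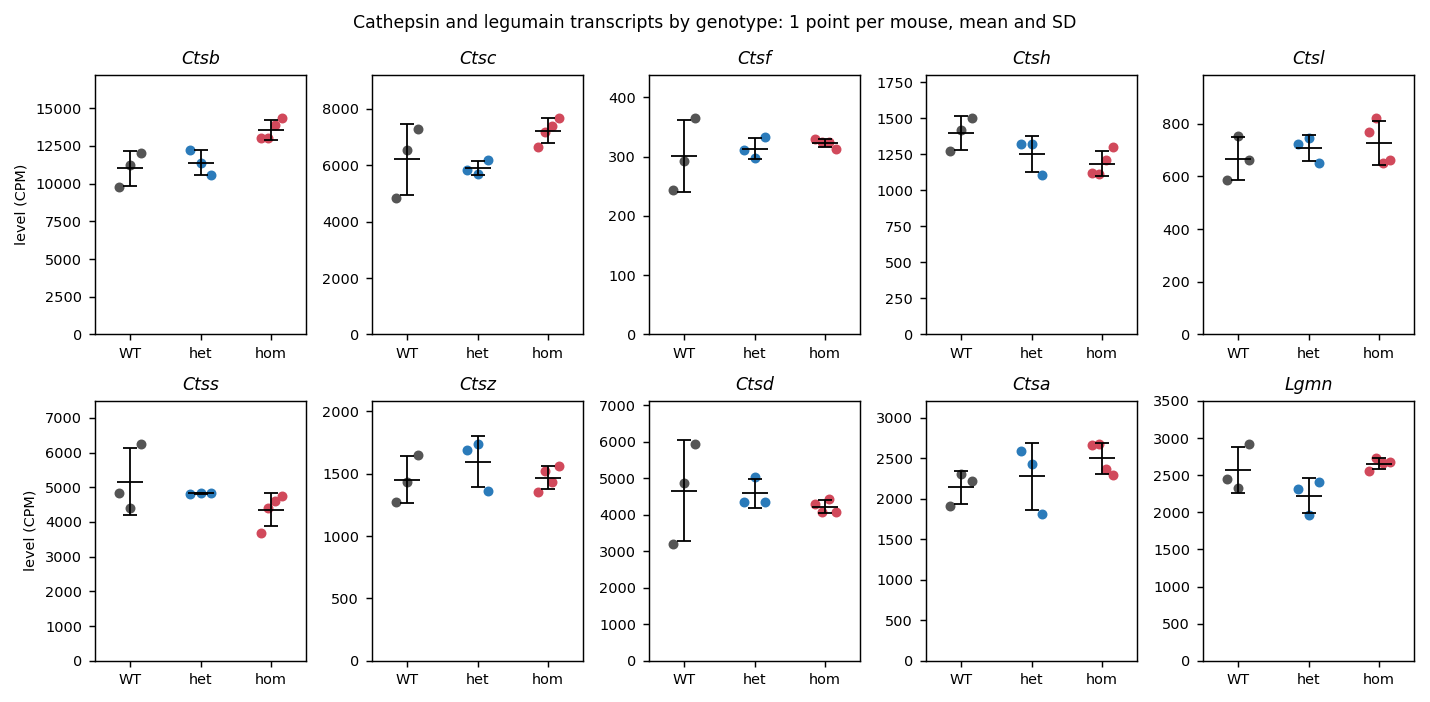
Level of each member in CPM (linear axes from 0) in wild-type (WT, grey, n = 3), heterozygous (het, blue, n = 3) and homozygous (hom, red, n = 4) libraries. Each point is a mouse, and the lines give the mean and SD. Only for Ctsb do all homozygous points (13012 to 14358 CPM) lie above all wild-type points (9745 to 12049 CPM).

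None of the 10 genes passed edgeR's test in any comparison. Between homozygous and wild-type macrophages, Ctsb had the largest fitted difference of the members, a log2 fold change of 0.30 (SE 0.08, 95% interval 0.12 to 0.48), higher in 4 of 4 homozygous libraries. That is a 1.23-fold difference, and the quasi-likelihood test of edgeR, adjusted by Benjamini-Hochberg over all genes, gave it an adjusted p of 0.414. Ctss had -0.24 (SE 0.12, interval -0.51 to 0.03) and Ctsh -0.24 (SE 0.10, interval -0.46 to -0.02), with adjusted p of 0.707 and 0.654 by the same edgeR test. Ctsa had 0.22, Ctsc 0.22, Ctsl 0.12, Ctsf 0.10, Lgmn 0.05, Ctsz 0.02 and Ctsd -0.14.

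By that test 0 of 10 members were called, against 0.0642% of all genes tested. At an unadjusted p under 0.05 there were 2 members, Ctsb (higher) and Ctsh (lower), where 7.52% of all genes reached that level (4.56% higher and 2.96% lower). Limma-voom called 0 members and DESeq2 called 1, Ctsb (adjusted p = 0.0433), against 0.0642% and 1.94% of all genes. The median of the members was 0.08, beside 0.02 over all genes, and 7 of 10 were fitted above 0, beside 51.1%. Groups did not overlap for 1 member that was higher, Ctsb, and 0 that were lower, beside 4.4% and 3.57% of all genes. Over the 10 genes the unadjusted 95% intervals reached from -0.51 to 0.50, which is up to 41.8% higher. Of the 12 CNS-macrophage markers 11, all but Mrc1, were fitted above 0, as were 7 of the 10 members, with a median of 0.38 for the markers. Of the 7 microglia markers 7 were fitted below 0, as were Ctss, Ctsh and Ctsd, with a median of -1.27 for the markers. The part of either marker list in these values was not tested.

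Between heterozygous and wild-type macrophages Lgmn had the fitted value farthest from 0, a log2 fold change of -0.21 (SE 0.10, interval -0.44 to 0.02), with 2 of 3 heterozygous libraries below every wild-type library and 0.791 as edgeR's adjusted p. Ctsh had -0.16 (SE 0.11) and Ctsz 0.14 (SE 0.12), and the other 7 lay between -0.10 and 0.09. EdgeR called 0 of 10 members, against 0% of all genes. Limma-voom and DESeq2 also called 0, against 0% and 1.4% of all genes, and 0 members had an unadjusted p under 0.05, a level reached by 5.82% of all genes (3.42% higher and 2.4% lower). Groups overlapped for each of the 10 members, while 5.43% of all genes were higher and 4.16% lower without overlap. The median was 0.01, the same as over all genes (0.01), 5 of 10 members were fitted above 0, beside 50.7%, and the intervals reached from 26.1% lower to 32.7% higher.

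Between homozygous and heterozygous macrophages Ctsc, Lgmn and Ctsb had the largest fitted values. Ctsc had a log2 fold change of 0.29 (SE 0.12, interval 0.02 to 0.56), Lgmn 0.26 (SE 0.10, interval 0.04 to 0.47) and Ctsb 0.26 (SE 0.08, interval 0.07 to 0.44). Each was higher in 4 of 4 homozygous libraries than in any heterozygous one, and for each edgeR's adjusted p was 1. Ctss had -0.15 (SE 0.12) and was lower in 4 of 4. EdgeR called 0 of 10 members, against 0.0214% of all genes, and limma-voom and DESeq2 also called 0, against 0.0143% and 0.777%. The 3 members with the largest values had an unadjusted p under 0.05, against 4.86% of all genes (2.65% higher and 2.2% lower). Groups did not overlap for 3 members that were higher and 1 that was lower, beside 3.75% and 3.72% of all genes. The members were not chosen at random and share libraries, so these counts are descriptions. The median was 0.04, beside 0.01 over all genes, and 6 of 10 were fitted above 0, beside 50.9%.

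**Figure D3:**
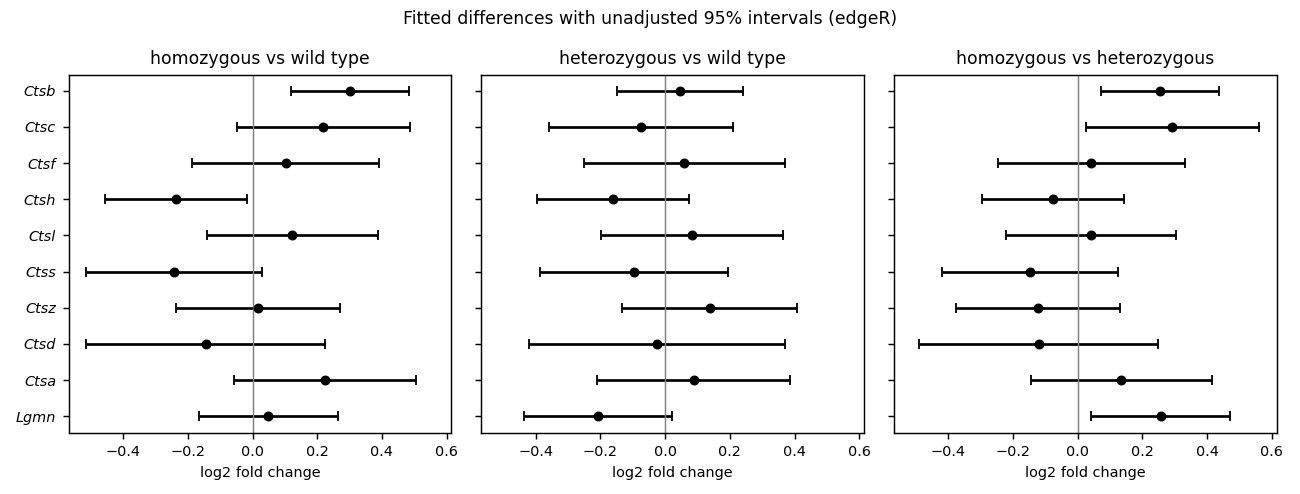
Fitted log2 fold changes of the members in the 3 comparisons, with unadjusted 95% intervals from edgeR's fit. Ctsb (0.30) and Ctsh (-0.24) in the left panel and Ctsc (0.29), Lgmn (0.26) and Ctsb (0.26) in the right panel have intervals that leave out 0, and none passed after adjustment over 14023 genes.

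The wild-type libraries differed more among themselves than the others did. The median coefficient of variation of the 10 genes was 12.7% in wild-type, 7.99% in heterozygous and 6.20% in homozygous libraries, beside 47.0%, 39.6% and 36.4% over all tested genes, most of which are less abundant. It ran from 8.43% for Ctsh to 29.6% for Ctsd in wild type. In heterozygous libraries it ran from 0.303% for Ctss to 18.1% for Ctsa, and in homozygous ones from 2.30% for Ctsf to 11.5% for Ctsl. Wild-type replicate 1 was the lowest of all 10 libraries for 6 genes (Ctsb, Ctsc, Ctsd, Ctsf, Ctsl and Ctsz), and wild-type replicate 3 the highest for 5 (Ctsd, Ctsf, Ctsh, Ctss and Lgmn). Relative to each gene's own mean, the median of the 10 genes was -0.26 in the former and 0.20 in the latter on the log2 scale, and between -0.09 and 0.08 in the other 8 libraries.

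Without wild-type replicate 1 the fitted difference of Ctsb between homozygous and wild-type libraries was 0.23, and that of Ctsc was 0.07 in place of 0.22. Without wild-type replicate 3 that of Ctss was -0.08 in place of -0.24, and that of Ctsd was 0.07 in place of -0.14. Without homozygous replicate 1 Ctss was at -0.16 against wild type and at -0.07, in place of -0.15, against the heterozygotes. With each library left out in turn, homozygotes against wild types ran from 0.23 to 0.37 for Ctsb, from 0.15 to 0.28 for Ctsa and from -0.29 to -0.18 for Ctsh, and the median of the members from 0.001 to 0.136. Values of heterozygotes against wild types also moved with single libraries. Lgmn, at -0.21, was at -0.10 without wild-type replicate 3 and at -0.12 without heterozygous replicate 2. Ctsz, at 0.14, was at 0.05 without wild-type replicate 1 and at 0.24 without wild-type replicate 3. Ctsh, at -0.16, was at -0.09 without heterozygous replicate 4 and at -0.10 without wild-type replicate 3.

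**Figure D4:**
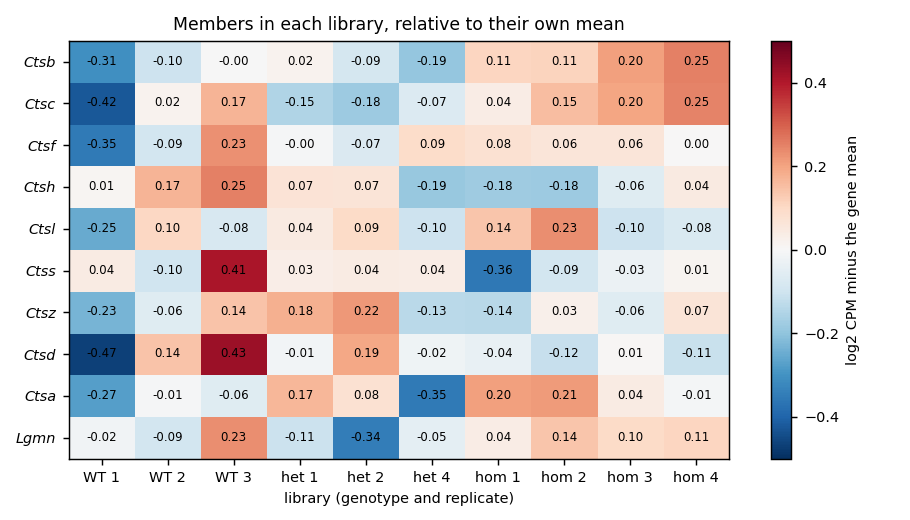
Log2 CPM of each member minus its mean over the 10 libraries, by genotype and replicate (red above, blue below). Wild-type replicate 1 is low for most members (median -0.26) and replicate 3 high (median 0.20). The homozygous libraries are all above the mean for Ctsb, Ctsc and Lgmn, and at or above it for Ctsf (0.001 in replicate 4). For Ctsf and Lgmn wild-type replicate 3 is above every homozygous library (0.23 for each gene).

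The members did not share a single pattern over the libraries. Likeness was measured as the root mean square difference of centred log2 CPM over the 10 libraries. Ctsb and Ctsc were the most alike pair (0.11), followed by Ctsa and Ctsl (0.11), and Ctsa and Ctss were the least alike (0.30). Of 6433 other genes with at least 20 CPM, Itm2b, a membrane protein, Slc25a5, a mitochondrial ADP/ATP carrier, and C1qc, a chain of complement C1q, were nearest to the mean profile of the 10 members (0.06 each), where the median distance was 0.40. Gas6, a ligand of receptors for dying cells, was nearest to Ctsb (0.06) and Tpp1, itself a lysosomal peptidase, nearest to Ctsc (0.09). The measure depends on how much a gene varies, so genes with little spread lie near each other whatever their pattern. Even the least alike members (0.30) were under the median distance of 0.40. A small distance is therefore no sign of a shared pattern.

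The balance between members was also compared within each library, where it does not depend on library scaling. The ratios were chosen after the values had been seen and are given without a test. The level of Ctsb was 2.02, 2.56 and 1.93 times that of Ctss (in CPM, not per length) in wild-type libraries. It was 2.54, 2.35 and 2.18 times in heterozygous and 3.55, 2.96, 3.02 and 3.02 times in homozygous libraries. The ratio of Ctsb to Cst3, cystatin C, a secreted inhibitor of cysteine cathepsins, was 1.12, 1.42 and 1.10 in wild-type, 1.30, 1.13 and 1.09 in heterozygous and 1.78, 1.77, 1.58 and 1.72 in homozygous libraries. In both ratios the homozygous libraries lay above all others, as they already did for Ctsb alone. Ctss and Cst3 were both fitted lower in homozygous than in wild-type libraries (-0.24 and -0.21). The ratios are therefore not observations separate from the single-gene values. The ratio of Ctsb to Ctsd did not separate the homozygous libraries, at 2.03 to 3.05 in wild-type, 2.25 to 2.80 in heterozygous and 3.03 to 3.51 in homozygous libraries. The ratio of Ctsl to Ctss, enzymes that both act on the invariant chain, was 0.122, 0.171 and 0.106 in wild-type and 0.140 to 0.210 in homozygous libraries, and these overlapped.

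**Figure D5:**
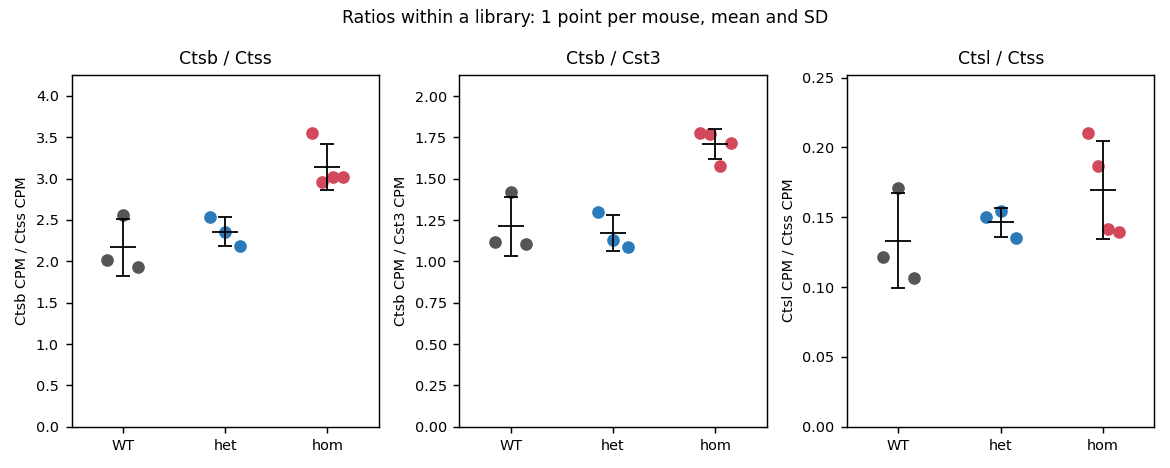
Ratios of CPM within each library for Ctsb to Ctss, Ctsb to Cst3 and Ctsl to Ctss, by genotype (grey wild type, blue heterozygous, red homozygous), with the mean and SD. Homozygous libraries lie apart in the Ctsb to Ctss ratio (2.96 to 3.55) and the Ctsb to Cst3 ratio (1.58 to 1.78), as they do for Ctsb alone. They overlap wild type in the Ctsl to Ctss ratio.

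The inhibitors of these proteases were dominated by Cst3. Of 14 listed inhibitors, 13 were in the table, 9 of these had 0 counts in all 10 libraries (the listed stefin A genes, which are near-identical copies, and cystatins 6 and 10) and 4 were tested. Cst3 averaged 9189 ± 1553 CPM over the wild types (SD, n = 3), 9722 ± 343 over the heterozygotes (SD, n = 3) and 7967 ± 741 over the homozygotes (SD, n = 4). Its log2 fold change was -0.29 (SE 0.11) between homozygous and heterozygous libraries, with no overlap, where 3.72% of all genes were lower without overlap. Against wild type it was -0.21 (SE 0.11). Cstb, the cytosolic stefin B, had 0.18 (SE 0.18) against wild type. Serpina3g, a serpin that can bind cathepsins, was low, at 4.53 to 39.0 CPM in wild-type and 0 to 3.09 CPM in homozygous libraries. EdgeR, DESeq2 and limma-voom called 0 of the 4 in each comparison.

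Other cathepsins were few. Of 14 listed, 11 had 0 counts in all libraries, among them Ctsk, the collagen-degrading cathepsin of osteoclasts, and Ctsg, a neutrophil granule protease. Ctso, a widely expressed papain-family member, averaged 222 ± 20.4 CPM over the wild types (SD, n = 3), 176 ± 11.9 over the heterozygotes (SD, n = 3) and 209 ± 32.0 over the homozygotes (SD, n = 4). Ctse, an aspartic protease of endosomes, was at 0.92 to 17.0 CPM. Ctsw, a cathepsin of T and NK cells, had counts in 2 libraries and was not tested. Neither tested gene was called by any of these 3 tools.

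Of 6 other lysosomal peptidases 0 were called in any comparison by edgeR, DESeq2 or limma-voom. Tpp1, tripeptidyl peptidase 1, had a log2 fold change of 0.28 (SE 0.11), Scpep1, a serine carboxypeptidase, 0.15 (SE 0.11), and Prcp, which cuts after proline, 0.19 (SE 0.11) between homozygous and wild-type libraries. Dpp7, a dipeptidyl peptidase chosen after its values were seen, had 0.58 (SE 0.16, adjusted p = 0.458 by edgeR). The partners of Ctsa in its complex were also measured. Glb1, beta-galactosidase, averaged 161 ± 16.1 CPM over the wild types (SD, n = 3), 204 ± 29.7 over the heterozygotes (SD, n = 3) and 244 ± 13.9 over the homozygotes (SD, n = 4). All 4 homozygotes were above every wild type, as they were for Prcp, for Dpp7 and for 4.4% of all genes. The fitted log2 value of Glb1 for homozygotes against wild types was 0.60 (SE 0.13), with 0.276 as edgeR's adjusted p. Neu1, neuraminidase 1, had 0.23 (SE 0.16), Galns, a sulfatase, -0.10 (SE 0.31) and Ctsa itself 0.22 (SE 0.13). EdgeR and limma-voom called 0 of the 3 partners in each comparison, and DESeq2 called 1, Glb1, higher in homozygotes than in wild types.

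Genes that carry these enzymes to the lysosome were tested for 11 of 12 listed. M6pr, the cation-dependent mannose 6-phosphate receptor, averaged 421 ± 142 CPM over the wild types (SD, n = 3) and 376 ± 49.1 over the homozygotes (SD, n = 4). Igf2r, the larger receptor of this pair, had counts in 2 libraries, at most 15, and was not tested. Vps35 and Vps26a, of the retromer that returns the receptors to the Golgi, had log2 fold changes of -0.27 (SE 0.16) and -0.01 (SE 0.17) between homozygous and wild-type libraries. Sort1, sortilin, chosen after its values were seen, had -0.73 (SE 0.30) in homozygous and -1.03 (SE 0.33) in heterozygous libraries against wild type, with adjusted p of 0.653 and 0.791 by edgeR. The same 3 tools called 0 of the 11.

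The 6 regulators of lysosomal genes listed were all tested, and 0 were called by edgeR, DESeq2 or limma-voom. Tfe3 was at 182 to 185 CPM over the wild types and 178 to 249 over the homozygotes, a log2 fold change of 0.23 (SE 0.19). Tfeb had -0.58 (SE 0.33), at 60.5 ± 18.2 CPM (SD, n = 3) against 40.6 ± 14.3 CPM (SD, n = 4), and Mcoln1, a lysosomal calcium channel, 0.13 (SE 0.24). Among the 5 members with the E-box in a promoter (as printed above), the values in this comparison ran from -0.14 for Ctsd to 0.22 for Ctsa. Among the 3 with a promoter but without the E-box they ran from -0.24 for Ctss to 0.22 for Ctsc. Both sets held values on either side of 0. Ctsb (0.30) and Ctsh (-0.24), for which no promoter was found, are in neither set. A link between the E-box and these values was not tested.

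For the MHC class II pathway, whose products these proteases serve, 11 of 11 listed genes were fitted below 0 between homozygous and wild-type libraries, with a median of -1.58. Ifi30, a thiol reductase of the pathway chosen after its values were seen, was nearest to 0 at -0.14 (SE 0.19), within the range of the members, where Ctss, Ctsl and Lgmn had -0.24, 0.12 and 0.05. A difference between the lists was not tested. Cd74, the invariant chain that Lgmn and Ctss cut, averaged 10357 ± 2756 CPM over the wild types (SD, n = 3) and 3457 ± 1549 over the homozygotes (SD, n = 4), fitted at -1.58 (SE 0.42) on the log2 scale. H2-Ab1 and H2-Aa, chains of the class II molecule, had -1.99 (SE 0.47) and -2.04 (SE 0.45). EdgeR called 0 of the 11 over all genes in any comparison, and 7 had an unadjusted p under 0.05 between homozygous and wild-type libraries, where 7.52% of all genes did. In that comparison DESeq2 called 6, against 1.94% of all genes, and limma-voom 1 (H2-DMa, a chain of the peptide-loading factor), against 0.0642%. Of the 43 tested genes in all these lists, edgeR called 0 in each comparison, and between homozygous and wild-type libraries 3 were higher and 9 lower at an unadjusted p under 0.05 (4.56% and 2.96% of all genes), 7 of the latter from the class II list. Markers of some other cells, among them B cells, which express class II, were fitted below 0 in the same comparison. These were 7 of 7 tested microglia, 3 of 3 monocyte and 5 of 5 B cell markers, the last with a median of -0.93. T and NK cell markers were below 0 in 5 of 6. Above 0 were 3 of 4 tested dendritic cell markers, with a median of 1.02. So were 4 of 5 astrocyte, 3 of 4 oligodendrocyte, 3 of 4 neuron, 2 of 2 fibroblast and 4 of 4 erythroid markers. Several of these markers were very low. Xcr1 and Itgae, dendritic cell markers chosen after their values were seen, had 3.74 and 1.42 at no more than 2.58 CPM. Cd209a, the most abundant, was at -0.01. Fibroblast markers summed to at most 11.8 CPM in wild-type and 6.10 CPM in homozygous libraries. Erythroid markers summed to 1.45 to 901 CPM over the homozygous libraries. The 7 dendritic cell markers (led by Cd209a and Zbtb46) summed to 115 to 143 CPM in wild-type and 74.8 to 226 in homozygous libraries. The 7 B cell markers, of which 4 were at 0 in all heterozygous libraries, summed to 466 to 761 CPM in wild-type, 350 to 475 in heterozygous and 265 to 433 in homozygous libraries. The part of these cells in the class II values was not tested.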

How the data were processed

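The authors deposited whole-number read counts per gene symbol for 10 libraries, each from a single mouse, per the labels. Libraries were made from 500 pg of RNA, and the submitters' processing notes name bcl2fastq 2.20, STAR 2.7.8a and featureCounts 2.0.2. The genome build, annotation, strand setting and treatment of reads with several matches were not given in the sources used here. Reads of overlapping or antisense genes therefore cannot be told apart, and GENCODE vM21 marks Ctsd, Ctsl and Ctss as overlapping another locus.

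Genes were filtered with filterByExpr (by genotype, at least 10 counts, 15 in total) and scaled by trimmed-mean-of-M-values factors. Differences were tested by quasi-likelihood in edgeR 4.0.16 (R 4.3.3) with robust estimation, fitted to all 10 libraries by genotype alone. Benjamini-Hochberg adjustment ran over 14023 genes, with 0.05 as the threshold for a call. A standard error is the absolute log2 fold change over the root of F. Log2 CPM used a prior count of 2. Lengths and symbols came from GENCODE vM21 (97.5% of tested genes matched) and promoters from RefSeq. The test was tried on simulated counts with planted changes larger than any fitted for the members. That trial therefore does not show whether differences as small as those of the members would be called. Alternatives were DESeq2's size factors, other count filters, DESeq2 1.42.0, limma-voom 3.58.1, no robust estimation, the letter m or f in the titles, a replicate block, fits to the compared genotypes alone and leaving out each library.

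The 10 genes and the gene lists were chosen with earlier results of these data known. By rule the text names all 10 genes, the 3 most abundant tested genes and any called gene of each pathway list, 2 markers per marker list described and the genes nearest in pattern. Mrc1 was given as the check of genotype. Some listed marker genes were left out of the marker sums and are not reported here.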

Additional observations from a re-analysis of the deposited data

How the results depend on the processing

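The count of members called was 0 in each comparison under every alternative run in edgeR or limma-voom, leaving out each library included (0 to 0), and 1 with DESeq2 for homozygous against wild type (Ctsb, adjusted p = 0.0433, range 0.0433 to 0.76 over 19 alternatives). Pathway genes called in that comparison were 0 by the test as reported, 0 to 0 with a library left out, 1 (H2-DMa) with no count filter, with the stricter filter, with limma-voom or with the title letter, and 7 with DESeq2. For homozygous against heterozygous libraries DESeq2 called 1 (H2-DMa). Over all genes, calls for homozygous against wild type were 9 by the test as reported, 272 with DESeq2, 17 with the title letter, 2 with only these genotypes, 1 with the replicate block and 2 to 12 with a library left out. Heterozygous against wild type had 0, and 197 with DESeq2. Homozygous against heterozygous had 3, and 109 with DESeq2, 2 with limma-voom, 1 with the title letter, the replicate block, no robust estimation or only these genotypes, and 1 to 2 with a library left out. Median log2 fold changes of the members moved by less than the spread between libraries under every alternative.

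Some fitted values changed sign. For homozygous against wild type, Ctsz was -0.004 with DESeq2's size factors and with DESeq2 itself. With a library left out, Ctsz ran from -0.064 to 0.120, Ctsf from -0.021 to 0.267, Lgmn from -0.012 to 0.152 and Ctsd from -0.349 to 0.068. For heterozygous against wild type, Ctsd was 0.012 with limma-voom and 0.124 with the replicate block. With a library left out, Ctsd ran from -0.239 to 0.189, Ctsb from -0.038 to 0.117, Ctsa from -0.022 to 0.220, Ctsf from -0.074 to 0.225, Ctsl from -0.006 to 0.171, Ctsc from -0.231 to 0.056 and Ctss from -0.204 to 0.066. For homozygous against heterozygous libraries, Ctsf was -0.007 with the replicate block, and Ctsl ran from -0.025 to 0.104 with a library left out. Causes were not tested.

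The replicate numbers are shared across genotypes, but the deviations of the 8 same-numbered pairs correlated by only -0.01 to 0.12 over 6443 genes, and 2 of 8 passed 0.1. The best match had a library's own number in 2 of 10 libraries. The numbers were therefore not taken to pair the mice, and the block changed no call of a member. A title letter by genotype interaction, added after the data had been seen, was also fitted. It rests on single libraries, as f stood only on wild-type replicate 3 and heterozygous replicate 4 of those genotypes. It is therefore given without a test result. The difference in log2 fold change against wild type (m minus f) ran from 0.11 (Lgmn) to 0.67 (Ctsd) for heterozygotes. For homozygotes it ran from -0.01 (Ctsh) to 0.53 (Ctsd). With 3 to 4 mice a genotype the standard errors of the members were 0.08 to 0.18.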
